A study of Homo sapiens with 9 samples.

Results

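The subunits of oxidative phosphorylation were examined in 786-O cells, an established line from a clear cell renal cell carcinoma (ccRCC). The cells lack functional VHL, so that HIF2α is stable at normal oxygen. Members were chosen by gene name: the NDUF subunit rows of complex I, SDHA to SDHD of complex II, the UQCR rows and CYC1 of complex III, the COX4 to COX8 rows of complex IV and the ATP5 rows of complex V, together with the 13 protein genes of mitochondrial DNA. This gave 105 of 38021 genes, 13 of them mitochondrially encoded and 92 nuclear. The nuclear members fell into 40 of complex I, 4 of complex II, 10 of complex III, 19 of complex IV and 19 of complex V. The mitochondrial members were 7 of complex I, 1 of complex III, 3 of complex IV and 2 of complex V. Of the 105 names, 94 were subunit genes. The remainder were 3 noncoding transcripts with names ending in AS1, 3 genes that are not subunits (ATP5S, ATP5SL and COX7A2L), 1 paralogue (NDUFA4L2), 2 readthrough transcripts and 2 retrocopies, and they were kept because the names matched. NDUFA4 and NDUFA4L2 were counted with complex IV, where the NDUFA4 protein is found.

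The study asked what ARNT and BMAL1 each contribute to HIF2α-driven expression. Cells were infected with lentiviral pLKO.1 vectors and selected with puromycin, and each of 3 groups had 3 libraries labelled as biological replicates. The shControl cells carried a control hairpin and were labelled wild type, the shARNT cells were labelled as an ARNT knockdown, and the shBMAL1 cells were labelled as a BMAL1 knockdown. The labels do not say which of the study's hairpins against BMAL1 was used, and all groups were grown in the same serum-containing medium at normal oxygen. The labels do not state that the libraries of a group came from separate infections, so p-values measure the spread between these samples only. Both knockdowns were compared with the same 3 shControl libraries, and the direct comparison set shBMAL1 against shARNT.

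Oxidative phosphorylation couples electron transfer to ATP synthesis across the inner mitochondrial membrane. Complexes I and II pass electrons to ubiquinone, complex III passes them to cytochrome c, and complex IV reduces oxygen. Complex V uses the proton gradient to make ATP. Complex II is encoded wholly in the nucleus, and the other complexes are built from subunits of both genomes. Mitochondrial DNA is transcribed as long polycistronic RNAs that are cut into single transcripts, so the levels of its genes are set after transcription as well as by it. ARNT is the usual partner of HIF2α, BMAL1 (ARNTL) is the partner of CLOCK in the circadian clock, and ccRCC is known for low mitochondrial respiration.

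Library totals lay between 33793045 and 35444735 reads. ARNT was lower in shARNT than in shControl, with 1225 ± 23.2 against 2352 ± 184 normalised read counts (mean ± SD, n = 3), a log2 fold change of -0.94 ± 0.07 (SE). ARNTL was lower in shBMAL1, with 326 ± 29.2 against 761 ± 32.0 normalised read counts and a log2 fold change of -1.23 ± 0.11. Each target was also lower in the other knockdown, ARNT with a log2 fold change of -0.23 in shBMAL1 and ARNTL with -0.26 in shARNT. The first was lost without replicate 2 of either group (-0.16 and -0.19) and the second without replicate 3 of shARNT or replicate 2 of shControl (-0.19 and -0.23). All 8 markers of renal or ccRCC origin were detected, with sums between 158390 and 184912 reads per library. The sums were 2 to 9 reads over 3 endothelial markers and 126 to 201 over 3 fibroblast markers. Among leukocyte markers CD68 gave 5438 to 7885 reads, while CD3E was at 0 and PTPRC gave at most 3 reads. In bulk samples fewer cells of a type and less RNA per cell cannot be told apart, and the number of mitochondria per cell was not measured.

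Promoter sequence was taken from RefSeq (GRCh38.p14), 250 bases before and 50 bases after a gene's start, and 65 of 81 nuclear subunit rows matched an entry. The promoters of 4 subunits that the results below turn on are printed 5′ to 3′ on the strand of the gene. NDUFS1 and ATP5A1 each have another promoter in that table, with no match to any of the motifs searched, which is not printed. Capitals mark a match to a motif on either strand, and the motif is named with each.
COX7C, complex IV, chr5:86617691-86617990, plus strand, GRCh38.p14, YY1 core in capitals: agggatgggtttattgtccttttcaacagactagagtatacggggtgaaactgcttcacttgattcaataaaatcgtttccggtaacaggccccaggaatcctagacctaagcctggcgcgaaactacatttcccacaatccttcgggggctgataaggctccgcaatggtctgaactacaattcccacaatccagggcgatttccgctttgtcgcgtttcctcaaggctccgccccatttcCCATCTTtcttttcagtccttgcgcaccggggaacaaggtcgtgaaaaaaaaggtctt
NDUFS1, complex I, chr2:206159395-206159694, minus strand, GRCh38.p14, ETS motif in capitals: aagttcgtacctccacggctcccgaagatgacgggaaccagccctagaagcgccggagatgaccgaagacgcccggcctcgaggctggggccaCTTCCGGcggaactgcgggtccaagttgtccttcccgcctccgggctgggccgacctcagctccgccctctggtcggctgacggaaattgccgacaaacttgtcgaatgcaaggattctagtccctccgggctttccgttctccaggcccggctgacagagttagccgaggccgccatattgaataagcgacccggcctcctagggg
ATP5A1, complex V, chr18:46098247-46098546, minus strand, GRCh38.p14, ETS motif in capitals: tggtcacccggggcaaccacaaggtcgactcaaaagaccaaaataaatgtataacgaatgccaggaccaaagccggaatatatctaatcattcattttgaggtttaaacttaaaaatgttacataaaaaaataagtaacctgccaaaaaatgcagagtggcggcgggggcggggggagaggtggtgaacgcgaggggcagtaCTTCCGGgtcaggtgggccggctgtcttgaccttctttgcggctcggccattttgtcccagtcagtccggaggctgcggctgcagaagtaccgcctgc
SDHA, complex II, chr5:218070-218369, plus strand, GRCh38.p14, no match: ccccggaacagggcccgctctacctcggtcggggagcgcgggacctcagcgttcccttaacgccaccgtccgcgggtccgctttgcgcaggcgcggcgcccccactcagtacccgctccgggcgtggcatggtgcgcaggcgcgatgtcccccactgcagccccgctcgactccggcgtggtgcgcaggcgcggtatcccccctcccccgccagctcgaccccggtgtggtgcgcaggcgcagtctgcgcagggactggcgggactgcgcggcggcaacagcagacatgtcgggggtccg

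Motifs were searched on both strands of 77 promoters of members and of all 35116 promoters in the table. The E-box CACGTG, the letters bound by BMAL1 with CLOCK, lay in 9.09% of the members' promoters and in 7.26% of all promoters. The core ACGTG of the hypoxia response element, which is also contained in that E-box, lay in 24.7% and 21.4%. The other motifs are those of factors known for respiratory genes. The ETS motif CCGGAAG, which GABPA binds, lay in 27.3% of members' promoters and in 10.3% of all. The YY1 core AAGATGG lay in 24.7% and 5.84%, and the NRF1 core GCGCATGC in 19.5% and 3.05%. The 7 members with an E-box were ATP5F1, ATP5G1, ATP5I, NDUFA7, NDUFA11, NDUFS7 and UQCR11. A match describes letters in this window and not binding.

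The 13 mitochondrially encoded genes took a larger share of the reads in both knockdowns. Their share was 4.94%, 5.56% and 6.54% of reads in the shControl libraries, 7.23%, 6.97% and 8.13% in shARNT, and 7.93%, 8.60% and 8.60% in shBMAL1. All 6 knockdown libraries lay above the 3 shControl libraries, and shARNT and shBMAL1 overlapped. The group means were 5.68 ± 0.805% (SD, n = 3), 7.44 ± 0.608% and 8.38 ± 0.384%. The 92 nuclear members together took 0.848%, 0.852% and 0.838% in shControl, 0.894%, 0.931% and 0.928% in shARNT, and 0.904%, 0.870% and 0.830% in shBMAL1. Their share in shARNT was above that of every shControl library, whereas shBMAL1 overlapped with both. With reads outside the mitochondrial genome as the denominator the overlap of shBMAL1 with shControl ended, since the share was 0.991%, 0.964% and 0.919% in shBMAL1 and 0.898% to 0.908% in shControl. Reads of mitochondrial members per read of nuclear members came to 6.71 ± 1.00 in shControl, 8.11 ± 0.634 in shARNT and 9.67 ± 0.810 in shBMAL1. These shares are descriptions without a test.

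**Figure D1:**
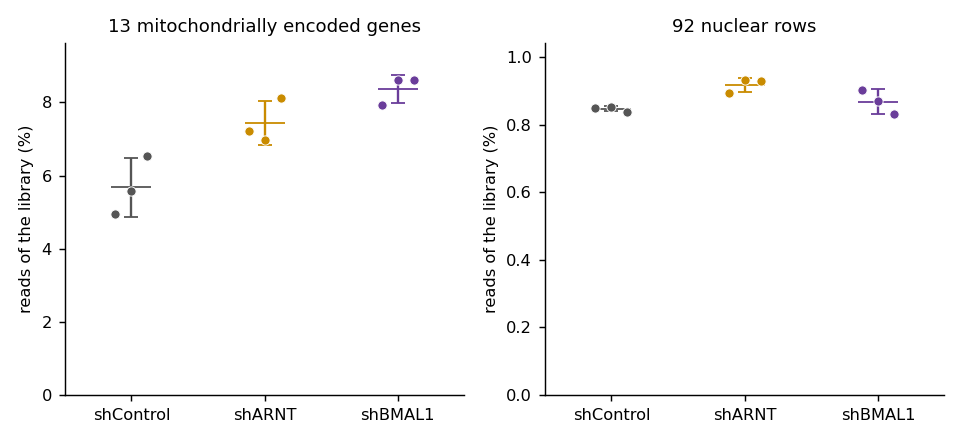
Share of each library's reads (%, y axis from 0) in the 13 mitochondrially encoded genes (left) and the 92 nuclear members (right), with 1 point per library and the mean ± SD of 3 libraries. The mitochondrial share lies between 4.94% and 6.54% in shControl and between 6.97% and 8.60% in the knockdowns.

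All 13 mitochondrial genes had a log2 fold change above 0 in both knockdowns. Of the 13, 11 rose under shARNT (DESeq2, adjusted p under 0.1), where 35.4% of 15164 genes tested were called, 16.5% as higher and 19.0% as lower. The median log2 fold change was 0.43, against 0.00 over all genes tested. Under shBMAL1 10 rose, where 36.8% of 19036 genes were called, 17.4% as higher and 19.4% as lower. The median was 0.52, against 0.02 over all genes. ND1 and CYTB did not pass the test in either knockdown, and ND2 did not pass under shBMAL1.

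COX1, the catalytic subunit of complex IV, gave 427257, 479657 and 534345 normalised read counts in shControl, 602692, 564066 and 594908 in shARNT, and 712055, 779186 and 734589 in shBMAL1. The 3 groups did not overlap, and shBMAL1 was the highest. The log2 fold change was 0.29 ± 0.07 (SE, adjusted p = 9.3e-05) under shARNT and 0.63 ± 0.08 (adjusted p = 2.4e-14) under shBMAL1. COX3, a core subunit of the same complex, rose by 0.27 ± 0.06 and 0.40 ± 0.07 on the log2 scale. COX2, which takes the electrons from cytochrome c, rose by 0.33 ± 0.15 and 0.50 ± 0.10. Its call under shARNT was lost without any 1 of the shARNT libraries or replicate 2 of shControl (0.30 to 0.38), and without replicate 1 of shControl it passed at 0.18.

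ND4, a proton-pumping subunit of complex I, gave 288404, 340430 and 395974 normalised read counts in shControl, 403139, 418091 and 540411 in shARNT, and 525313, 511997 and 489780 in shBMAL1. No knockdown library fell among the shControl libraries. The log2 fold change was 0.41 ± 0.19 (adjusted p = 0.088) and 0.57 ± 0.09 (adjusted p = 2.7e-09). ND3, a small complex I subunit, rose more under shARNT (0.59 ± 0.16, adjusted p = 0.0012) than under shBMAL1 (0.30 ± 0.10, adjusted p = 0.0071), and its direct comparison was among those that passed. ND5 rose by 0.43 and 0.64, ND4L by 0.42 and 0.64, and ND6 by 0.54 and 0.73 under shARNT and shBMAL1, in log2 units. ND6 is the gene of this group that lies on the other strand, next to ND5 without overlap, and whether counting used the strand was not stated. ATP6 and ATP8, the mitochondrial subunits of complex V, rose by 0.51 and 0.52 under shARNT and by 0.52 and 0.84 under shBMAL1. Their reading frames overlap, as do those of ND4L and ND4, and some of the ATP6 and ATP8 counts were fractional. ND2, a proton-pumping subunit of complex I, rose by 0.50 under shARNT.

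ND1 shows how far single libraries spread. It gave 36914, 40307 and 71958 normalised read counts in shControl, 64516, 58696 and 96243 in shARNT, and 72525, 69684 and 67259 in shBMAL1. Replicate 3 was the highest of its group in shControl and in shARNT, and the shControl libraries overlapped with shARNT. CYTB, the mitochondrial subunit of complex III, gave 92420 to 136699 in shControl, 124633 to 173154 in shARNT and 116988 to 132610 in shBMAL1, and the groups overlapped.

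The number of calls under shARNT changed with the libraries used, while the median log2 fold change of the 13 genes lay between 0.32 and 0.58 with 1 library left out. Leaving out replicate 3 of shControl, the group's highest, gave 13 of 13 genes called, whereas leaving out replicate 3 of shARNT gave 3, replicate 2 of shControl 3, replicate 1 of shControl 4, and replicate 1 or 2 of shARNT 6 each. COX1, COX3 and ND3 passed in all of these fits. Under shBMAL1 the count lay between 7 and 13. There ND4L (0.47 to 0.63), ATP6 (0.40 to 0.50) and ATP8 (0.62 to 0.76) were each lost without replicate 1 or 2 of shControl or replicate 2 or 3 of shBMAL1. ND3 was lost there without replicate 1 of shBMAL1 (0.34) and with the replicate block (0.31). A correction for the GC content of genes ended the calls of ND3 (0.26) and ATP6 (0.49) there, and those of ND4 (0.40), ND5 (0.42), ND6 (0.52), ND4L (0.39) and ATP8 (0.49) under shARNT. With TMM scaling the calls of ND4 (0.40), ND5 (0.42), COX2 (0.31) and ATP8 (0.51) were lost under shARNT. The groups did not overlap for 10 of the 13 genes under shARNT and for 6 under shBMAL1, all with the knockdown higher. Over all genes tested, 20.9% lay above shControl without overlap under shARNT and 22.3% under shBMAL1.

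**Figure D2:**
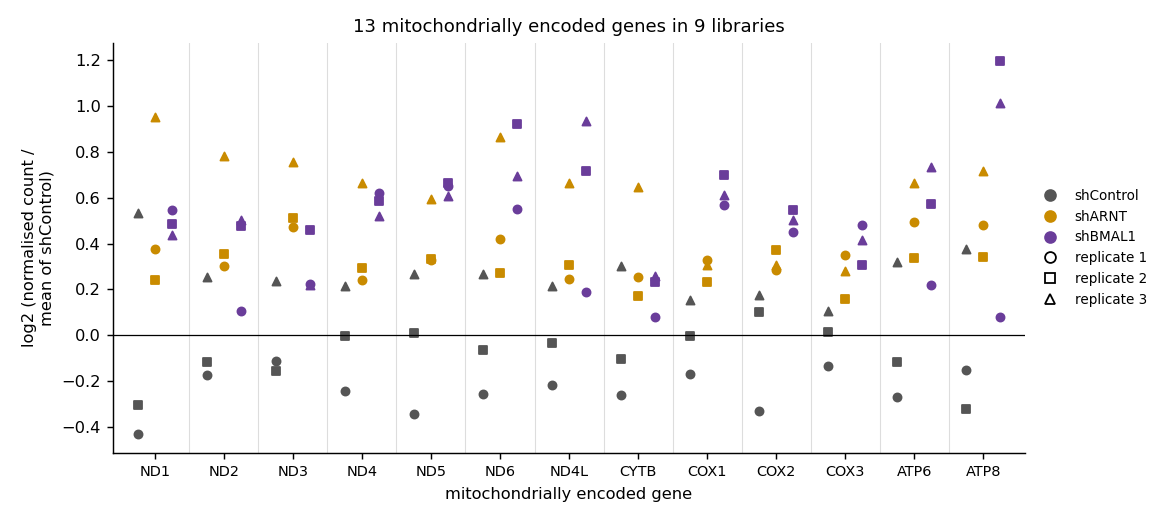
Normalised read count of each mitochondrially encoded gene in each library as a log2 ratio to the mean of the 3 shControl libraries. Colours give the group and marker shapes the replicate number as labelled. Replicate 3 of shControl lies above the other shControl libraries for all 13 genes, and the shBMAL1 libraries of COX1 lie above those of shARNT.

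In the direct comparison, where 35.3% of 18181 genes were called, 17.3% as higher and 18.0% as lower, 3 mitochondrial genes were higher in shBMAL1 than in shARNT and 1 was lower. COX1 was higher by 0.34 ± 0.06 (adjusted p = 3.0e-07), COX2 by 0.18 ± 0.06 (adjusted p = 0.0096) and ND5 by 0.21 ± 0.07 (adjusted p = 0.016) on the log2 scale. ND3 fell by 0.28 ± 0.09 (adjusted p = 0.0049). The call of ND5 was lost without replicate 1 or replicate 2 of shARNT (0.17 in both fits), and 7 genes passed without replicate 3 of shARNT. With 1 fit over all 9 libraries only COX1 passed. As a share of the reads of the 13 genes, COX1 took 24.2 ± 0.886% in shControl, 23.0 ± 1.57% in shARNT and 25.9 ± 0.687% in shBMAL1. CYTB took 5.53 ± 0.369%, 5.55 ± 0.536% and 4.41 ± 0.169%, and ND3 took 0.885 ± 0.0763%, 1.03 ± 0.0415% and 0.757 ± 0.0622%. The 3 shBMAL1 libraries lay below the other 6 for CYTB and overlapped with shControl for ND3. The mitochondrial rRNA genes took 0.535 ± 0.0642% of the shControl reads, 0.618 ± 0.00440% of the shARNT reads and 0.953 ± 0.155% of those from shBMAL1. These libraries were made from mRNA, and the share of mitochondrial transcripts that such a library captures depends on their tails, which were not measured.

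Counted in either direction, nuclear members were called about as often as other genes. Of 85 tested under shARNT, 28 rose and 4 fell, which is 37.6% against the 35.4% of all genes. Of 86 tested under shBMAL1, 22 rose and 9 fell, which is 36.0% against 36.8%. By direction, 32.9% were higher and 4.71% lower under shARNT, against 16.5% and 19.0% of all genes, and 25.6% were higher and 10.5% lower under shBMAL1, against 17.4% and 19.4%. Their median log2 fold changes were 0.11 and 0.05, below those of the 13 mitochondrial genes, and this difference between the genomes was not tested. In the direct comparison 14 of 86 were higher and 15 lower in shBMAL1, with a median of -0.01. That is 16.3% and 17.4%, close to the 17.3% and 18.0% of all genes. The changes were small, and 2 nuclear members in each comparison were called with a change of at least 1.5-fold. Under shARNT these were COX7C and the paralogue NDUFA4L2, and under shBMAL1 COX7C and the noncoding NDUFA6-AS1. In the direct comparison they were ATP5B and NDUFA6-AS1. NDUFA4L2 and NDUFA6-AS1 had low counts and are not subunit genes. Without replicate 2 of shARNT 18 members were called under shARNT, and without replicate 2 of shControl 20 were called under shBMAL1.

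**Figure D3:**
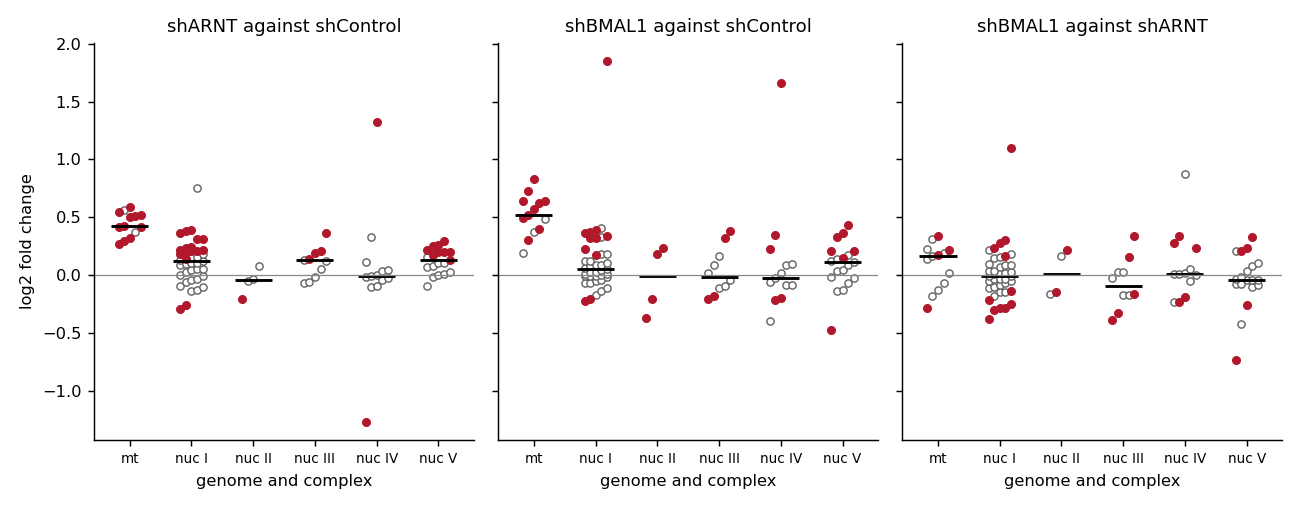
Log2 fold change of every member tested, by comparison, for the mitochondrial genes (mt) and the nuclear members (nuc) of complexes I to V. Filled red points passed DESeq2's test at an adjusted p under 0.1, open points did not, and the bar is the median. The mitochondrial genes lie above 0 in both knockdowns, with medians of 0.43 and 0.52, and the nuclear medians in the knockdowns lie between -0.04 and 0.13.

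Of the 92 nuclear members, 9 rose in both knockdowns, and they were ATP5A1, ATP5F1, COX7C, NDUFA1, NDUFA3, NDUFB3, NDUFB5, NDUFS3 and UQCRB. SDHA fell in both. ATP5B and UQCRHL rose under shARNT and fell under shBMAL1, and both calls of UQCRHL were lost in 4 of the 6 fits that left out 1 library (0.10 to 0.22 and -0.12 to -0.18). Another 17 rose and 3 fell under shARNT alone by the threshold, and 13 rose and 6 fell under shBMAL1 alone, and 34 were tested and not called in either. Both columns share their control libraries, so they are not independent, and a threshold passed in 1 knockdown only does not show that the knockdowns differ. The share of all genes in each of these joint classes was not counted, so the counts cannot be set against it. A further 7 were not tested under shARNT because their counts were too low, of which 6 were not tested under shBMAL1 either.

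COX7C, a small structural subunit of complex IV, changed the most among subunit genes in both knockdowns. It gave 345, 370 and 422 normalised read counts in shControl, 946, 981 and 910 in shARNT, and 1206, 1345 and 1049 in shBMAL1. The 3 groups did not overlap. The log2 fold change was 1.32 ± 0.10 (adjusted p = 2.5e-36) under shARNT, 1.66 ± 0.12 (adjusted p = 1.2e-43) under shBMAL1 and 0.34 ± 0.10 (adjusted p = 0.0035) in the direct comparison. It passed in every alternative fit, with values from 1.26 to 1.41 and from 1.57 to 1.75 for the knockdowns. Per length, in RPKM (reads per kilobase of transcript, scaled to library size), COX7C stood at 17.2 ± 1.67 with the control hairpin, at 43.6 ± 1.69 with shARNT and at 55.7 ± 6.78 with shBMAL1. On that scale it was the lowest of the tested nuclear subunit genes of complex IV in shControl. The next were COX7B (23.5 ± 1.44) and NDUFA4 (44.8 ± 1.87), and COX4I1 was the highest (384 ± 25.2). Genes of this family have processed copies in the genome, and how reads that match several places were counted was not stated.

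The other nuclear subunits of complex IV had smaller fold changes than COX7C. COX4I1, the large regulatory subunit, gave 10085, 11110 and 9688 normalised read counts in shControl, 9997, 9976 and 10964 in shARNT, and 11088, 10024 and 10135 in shBMAL1, and the groups overlapped. Its log2 fold change was 0.01 ± 0.06 and 0.01 ± 0.07 and did not pass. Of the 19 nuclear rows of the complex, 13 were tested. Under shARNT only COX7C rose, and NDUFA4L2 fell, and the other 11 did not pass, which is 15.4% called against 35.4% of all genes. NDUFA4L2, the paralogue that HIF is known to induce, was low, with 28.2, 18.0 and 20.2 normalised read counts in shControl, 5.8, 11.8 and 9.9 in shARNT and 11.9, 19.1 and 19.6 in shBMAL1. Its log2 fold change under shARNT was -1.27 ± 0.57 (adjusted p = 0.078), and the call was lost in all 5 of the fits with 1 library left out that tested it (-1.02 to -1.49), and with the GC correction (-1.20). Without replicate 1 of shControl it was not tested. Under shBMAL1 the subunit NDUFA4 rose by 0.34 ± 0.11 and COX5B, which binds zinc, by 0.23 ± 0.09. COX7A2, the broadly expressed isoform of its subunit, fell by 0.20 ± 0.07, and COX7A2L, which helps to join complexes III and IV, fell by 0.22 ± 0.08. With COX7C these make 38.5% called against 36.8% of all genes. NDUFA4 was lost without replicate 1 of shBMAL1 (0.25) and with the GC correction (0.31), and COX7A2 without replicate 3 of shBMAL1 (-0.15). COX5B was lost without replicate 1 or 2 of shControl (0.16 and 0.21) or replicate 2 of shBMAL1 (0.19). COX7A2L was lost without replicate 3 of shControl (-0.17) or replicate 1 or 3 of shBMAL1 (-0.17 and -0.18). The direct comparison called the same 4 genes, NDUFA4 and COX5B as higher (0.23 ± 0.11 and 0.28 ± 0.09) and COX7A2 and COX7A2L as lower (-0.23 ± 0.09 and -0.19 ± 0.08). With COX7C these make 38.5% called there, against 35.3% of all genes. With 1 library left out, the call of NDUFA4 was lost in 5 of 6 fits (0.14 to 0.27) and that of COX7A2L in 4 (-0.14 to -0.18). COX5B was lost without replicate 2 of shARNT (0.20), and COX7A2 without that library or replicate 3 of shBMAL1 (-0.13 and -0.18). The GC correction also ended the call of NDUFA4 (0.23).

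The tissue-restricted isoforms of complex IV were at or near 0. COX4I2, COX6A2 and COX7B2 had no reads in any library. COX7A1, the heart and muscle isoform, gave 1.0 to 2.9 normalised read counts, COX6B2 at most 2.0 and COX8C at most 1.0. None of the 6 was tested. The broadly expressed COX6A1, COX6B1, COX7B and COX8A were detected in every library, and none passed in any comparison.

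**Figure D4:**
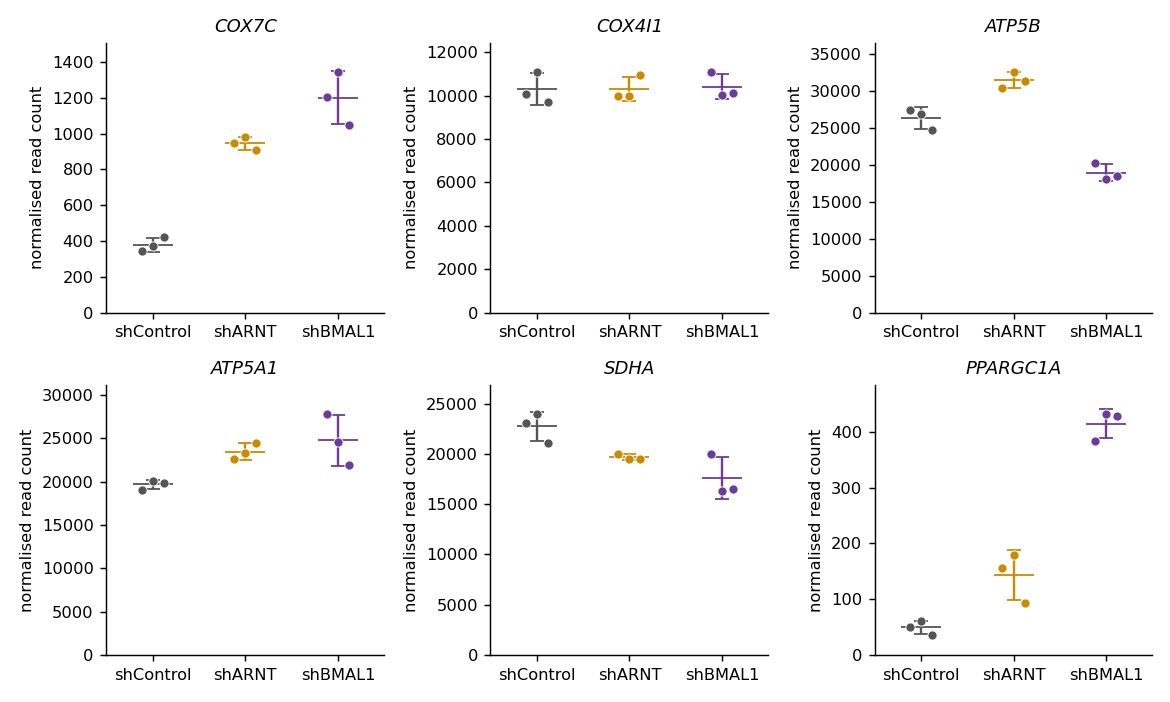
Normalised read count per library (points), with the mean ± SD of 3 libraries, for 5 nuclear subunits and PPARGC1A, a regulator described below. COX7C is higher in every knockdown library, COX4I1 overlaps between groups, and ATP5B lies above shControl in shARNT and below it in shBMAL1.

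Complex V held the nuclear subunit that moved in opposite directions. ATP5B, the catalytic beta subunit of ATP synthase, gave 27376, 26858 and 24641 normalised read counts in shControl, 30369, 32578 and 31366 in shARNT, and 20181, 18044 and 18505 in shBMAL1. The groups did not overlap. It rose by 0.26 ± 0.05 (adjusted p = 8.9e-06) under shARNT, fell by 0.48 ± 0.07 (adjusted p = 3.4e-11) under shBMAL1, and fell by 0.73 ± 0.06 (adjusted p = 6.6e-29) in the direct comparison. All 3 calls held in every alternative fit. ATP5A1, the alpha subunit that forms the catalytic head with ATP5B, was set beside it after its values were seen. It gave 19034, 20102 and 19873 normalised read counts in shControl, 22553, 23244 and 24484 in shARNT, and 27811, 24549 and 21920 in shBMAL1. All knockdown libraries were above shControl, and the log2 fold changes were 0.26 ± 0.05 and 0.33 ± 0.08. The alpha and beta transcripts thus moved the same way under shARNT and in opposite directions under shBMAL1.

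Of the 19 nuclear rows of complex V, 9 rose under shARNT and the other 10 did not pass. That is 47.4% called against 35.4% of all genes, 16.5% of them as higher. Among the 9 were ATP5SL, which is not a subunit, and the readthrough transcript ATP5J2-PTCD1. ATP5I, the small e subunit, had the largest of these changes, 0.30 ± 0.05 on the log2 scale, and its call was lost with 1 fit over all 9 libraries (0.29). In shBMAL1 ATP5I gave 6473, 6497 and 4083 normalised read counts, the last of them below all other libraries. Under shBMAL1 6 rose and ATP5B fell, which is 36.8% called, as over all genes. ATP5S, also called factor B and not a structural subunit, rose by 0.43 ± 0.16 and ATP5J, the coupling factor 6 subunit, by 0.36 ± 0.11. The call of ATP5S was lost without replicate 2 or 3 of shControl or replicate 2 of shBMAL1 (0.35, 0.36 and 0.39). In the direct comparison ATP5G2, a c-ring gene, was higher by 0.23 ± 0.08 in shBMAL1 and ATP5SL, which takes part in complex I assembly, fell by 0.26 ± 0.08. ATP5S was higher there by 0.33 ± 0.14, which was lost in 5 of the 6 fits with 1 library left out (0.28 to 0.35).

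Complex II, with no mitochondrial gene, was split in shBMAL1. SDHA, the flavoprotein that oxidises succinate, gave 23132, 24006 and 21102 normalised read counts in shControl, 20021, 19489 and 19501 in shARNT, and 20011, 16277 and 16512 in shBMAL1. Every knockdown library was below every shControl library. SDHA fell by 0.21 ± 0.05 (adjusted p = 0.00084) under shARNT and by 0.37 ± 0.08 (adjusted p = 5.5e-05) under shBMAL1, in every alternative fit. SDHB, the iron-sulphur subunit, fell by 0.20 ± 0.07 (adjusted p = 0.015) under shBMAL1. SDHC and SDHD, the membrane anchors, rose there by 0.24 ± 0.08 (adjusted p = 0.015) and 0.18 ± 0.09 (adjusted p = 0.088). The call of SDHB was lost without replicate 2 of shControl (-0.17) and that of SDHC without replicate 3 of shControl (0.20). SDHD was lost without any 1 of the shControl libraries or replicate 1 or 2 of shBMAL1 (0.10 to 0.21). It was also lost with the GC correction (0.15) and with the replicate block (0.18). Under shARNT SDHB, SDHC and SDHD did not pass. SDHB fell by 0.15 ± 0.07 and SDHD was higher by 0.22 ± 0.09 in the direct comparison. The first was lost in all 6 fits with 1 library left out (-0.13 to -0.16) and with the replicate block (-0.15). The second was lost without replicate 1 of shARNT or replicate 1 or 2 of shBMAL1 (0.13 to 0.21).

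In complex I, 14 of 39 nuclear members tested rose and 2 fell under shARNT, and 9 of 40, 1 of them a noncoding transcript, rose and 2 fell under shBMAL1. These are 41% called against 35.4% of all genes, and 27.5% against 36.8%. NDUFS1, the largest subunit of the electron-accepting arm, gave 5739, 5717 and 5414 normalised read counts in shControl, 6725, 6385 and 6880 in shARNT, and 4831, 5253 and 5326 in shBMAL1. The shARNT libraries were the highest and the shBMAL1 libraries the lowest, with no overlap. NDUFS1 rose by 0.25 ± 0.05 (adjusted p = 3.7e-05) under shARNT and fell by 0.38 ± 0.07 (adjusted p = 2.8e-07) in the direct comparison, but did not pass under shBMAL1 (adjusted p = 0.12). NDUFB3, an accessory subunit of the membrane arm, rose by 0.39 ± 0.11 and 0.37 ± 0.12 in the knockdowns, and NDUFA3, another accessory subunit, rose by 0.36 ± 0.13 and 0.39 ± 0.14. NDUFS6, which carries zinc, rose by 0.38 ± 0.10 under shARNT. NDUFA13, also known as GRIM-19, fell by 0.30 ± 0.08 under shARNT and was higher by 0.31 ± 0.09 in the direct comparison. NDUFA7, an accessory subunit, fell by 0.26 ± 0.09 under shARNT. Under shBMAL1 NDUFV1, which binds NADH and FMN, fell by 0.23 ± 0.07 and NDUFS8, an iron-sulphur subunit, fell by 0.21 ± 0.08. NDUFB9, a membrane-arm accessory subunit, fell by 0.30 ± 0.08 in the direct comparison and NDUFB6, of the same arm, was higher by 0.27 ± 0.13.

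Several of these complex I calls rested on single libraries. NDUFA7 was lost without replicate 3 of shARNT or of shControl (-0.23 and -0.17). NDUFA3 was lost under shARNT without replicate 2 or 3 of shARNT or replicate 2 of shControl (0.22 to 0.35), and under shBMAL1 without replicate 2 of shControl or replicate 1 of shBMAL1 (0.25 and 0.32). NDUFB3 was lost under shBMAL1 without replicate 3 of shControl or of shBMAL1 (0.30 and 0.26), and NDUFS8 without replicate 3 of shControl or replicate 1 or 2 of shBMAL1 (-0.15 to -0.18). NDUFB6 was lost without any 1 of the shARNT libraries or without replicate 2 or 3 of shBMAL1 (0.14 to 0.30), and with TMM scaling (0.27). The noncoding transcript NDUFA6-AS1, now called NDUFA6-DT and annotated beside NDUFA6 without overlap, rose by 1.85 ± 0.52 under shBMAL1, from 9.73 ± 2.37 to 35.2 ± 13.7 normalised read counts, a low level.

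In complex III, UQCRB, which lies near the ubiquinone site, rose in both knockdowns. It gave 2942, 2749 and 2975 normalised read counts in shControl, 3518, 3576 and 4032 in shARNT, and 3128, 4219 and 3970 in shBMAL1, and no knockdown library overlapped with shControl. Its log2 fold change was 0.36 ± 0.07 (adjusted p = 8.2e-07) and 0.38 ± 0.10 (adjusted p = 0.00045). Of the 10 rows, 4 rose under shARNT and the other 6 did not pass, and 2 rose and 2 fell under shBMAL1. That is 40% called in both, against 35.4% and 36.8% of all genes. The rows that rose under shARNT and those that fell under shBMAL1 include UQCRHL. UQCR11, a small accessory subunit, rose by 0.32 ± 0.10 under shBMAL1 and was higher by 0.34 ± 0.09 in the direct comparison. CYC1, the cytochrome c1 that hands electrons to cytochrome c, fell there by 0.21 ± 0.09 and by 0.33 ± 0.09 in the direct comparison. The first of these calls of CYC1 was lost without replicate 2 or 3 of shControl or of shBMAL1 (-0.14 to -0.19) and with the GC correction (-0.15). UQCRHL, a retrocopy, had counts close to those of its parent UQCRH, 2471 ± 199 against 2397 ± 197 in shControl. Reads shared between these copies make both values uncertain, and UQCRH itself passed in neither knockdown. UQCRHL fell by 0.38 ± 0.09 in the direct comparison. UQCRC2, a core subunit, was higher by 0.16 ± 0.07 in the direct comparison, which was lost without any 1 of the shARNT libraries or replicate 3 of shBMAL1 (0.10 to 0.17).

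Other genes of the pathway were taken from 3 lists that share no gene with the members. Of 51 assembly factors tested, 14 rose and 2 fell under shARNT (median 0.15) and 8 rose under shBMAL1 (median 0.10), where the other 43 did not pass. These are 31.4% called against 35.4% of all genes under shARNT, and 15.7% against 36.8% under shBMAL1. COX20, which helps to insert COX2 into complex IV, rose from 1043 ± 63.8 to 1207 ± 70.7 in shARNT and to 1718 ± 289 normalised read counts in shBMAL1, a log2 fold change of 0.72 ± 0.11 (adjusted p = 1.2e-09) in the latter. COA5, a complex IV assembly factor, rose by 0.41 ± 0.18 and 0.58 ± 0.19. TTC19, a complex III factor, fell by 0.33 ± 0.08 under shARNT. C17orf89, a complex I assembly factor, rose by 0.40 ± 0.14 under shARNT, which was lost without replicate 2 of shARNT or replicate 1 of shControl (0.33 and 0.34). COX17, a copper chaperone, fell there by 0.25 ± 0.12, which was lost in all 6 fits with 1 library left out (-0.21 to -0.28) and with the GC correction (-0.24). COX20 and COA1 were higher by 0.51 ± 0.11 and 0.32 ± 0.09, and NDUFAF6 fell by 0.40 ± 0.11, in shBMAL1 against shARNT. COX14 fell by 0.32 ± 0.15 there, which was lost in all 6 fits with 1 library left out (-0.27 to -0.35). The call of COA5 was lost under shARNT without replicate 2 or 3 of shARNT or replicate 1 or 3 of shControl (0.25 to 0.42), and under shBMAL1 without replicate 3 of shControl or replicate 2 of shBMAL1 (0.42 and 0.40). COX20 was lost under shARNT without replicate 2 or 3 of shARNT or of shControl (0.18 to 0.20) and with 1 fit over 9 libraries (0.21).

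Of 37 genes tested that maintain and express mitochondrial DNA, 13 rose and 2 fell under shARNT, which is 40.5% called against 35.4% of all genes. Under shBMAL1 3 rose and 10 fell, which is 35.1% against 36.8%. In the direct comparison 3 were higher and 16 lower in shBMAL1, with a median of -0.13 against 0.01 over all genes, where 18.0% of genes were lower. POLG, the polymerase that copies mitochondrial DNA, gave 2970, 2964 and 3226 normalised read counts in shControl, 2787, 2642 and 2407 in shARNT, and 1953, 1821 and 2091 in shBMAL1. The groups did not overlap, and the log2 fold change was -0.22 ± 0.07 (adjusted p = 0.0062) and -0.65 ± 0.08 (adjusted p = 3.8e-15). LONP1, a protease of the matrix, fell by 0.42 ± 0.08 under shBMAL1. TFB2M, a factor of mitochondrial transcription initiation, rose by 0.42 ± 0.10 under shARNT and 0.31 ± 0.12 under shBMAL1. MTPAP, the mitochondrial poly(A) polymerase, rose by 0.36 ± 0.09 under shARNT, and MTERF4, which takes part in mitochondrial ribosome assembly, rose by 0.45 ± 0.08 under shBMAL1. FASTKD5, which processes mitochondrial transcripts, rose by 0.32 ± 0.10 under shARNT and fell by 0.56 ± 0.10 in the direct comparison. Its fall under shBMAL1 (-0.24 ± 0.10) was lost without replicate 1 or 3 of shControl or replicate 2 or 3 of shBMAL1 (-0.22 to -0.24). TOP1MT, the mitochondrial topoisomerase, fell by 0.18 ± 0.08 under shARNT, a call lost in 4 of the 6 fits with 1 library left out (-0.15 to -0.20) and with the GC correction (-0.14). TRMT10C, a subunit of mitochondrial RNase P, rose by 0.33 ± 0.10 under shBMAL1. FASTKD3, of the same family as FASTKD5, fell by 0.48 ± 0.11 in the direct comparison, and there MTERF4 and POLG2, the accessory subunit of the polymerase, were higher by 0.31 ± 0.08 and 0.37 ± 0.13. The call of POLG2 was lost without replicate 2 of shARNT or replicate 3 of shBMAL1 (0.32 and 0.31). TFB2M was lost under shBMAL1 without replicate 2 of shControl or replicate 2 or 3 of shBMAL1 (0.21 to 0.29).

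Of 20 nuclear regulators of respiratory genes, 4 rose and 5 fell under shARNT, and 6 rose and 3 fell under shBMAL1, which is 45% called in both, against 35.4% and 36.8% of all genes. PPARGC1A, the coactivator PGC-1α known to drive mitochondrial biogenesis, gave 50.3, 61.0 and 36.4 normalised read counts in shControl, 155.9, 179.7 and 93.4 in shARNT, and 384.2, 432.3 and 427.9 in shBMAL1. The groups did not overlap, and shBMAL1 was the highest. The log2 fold change was 1.54 ± 0.28 (adjusted p = 5.5e-07) under shARNT, 3.07 ± 0.19 (adjusted p = 1.2e-55) under shBMAL1 and 1.53 ± 0.18 (adjusted p = 3.4e-15) in the direct comparison. ESRRG, a nuclear receptor that PGC-1α coactivates, rose under shBMAL1 from 33.8 ± 10.0 to 75.5 ± 3.56 normalised read counts (log2 fold change 1.16 ± 0.31, adjusted p = 0.0013). MXI1, an antagonist of MYC, fell by 0.40 ± 0.11 under shARNT and rose by 0.32 ± 0.10 under shBMAL1. HCFC1, a cofactor of transcription, fell by 0.32 ± 0.07 under shBMAL1, and PRKAA2, a catalytic subunit of AMPK, fell by 0.56 ± 0.12 under shARNT. SIRT1, a deacetylase, rose by 0.25 ± 0.08 under shARNT, which was lost without replicate 1 of shControl (0.20). GABPB1, the partner of GABPA, fell by 0.29 ± 0.10 under shBMAL1, which was also lost without that library (-0.26). Against shARNT, MXI1 in shBMAL1 was higher by 0.72 ± 0.10, and HCFC1 and the PGC-1 family member PPRC1 fell by 0.33 ± 0.07 and 0.30 ± 0.07. TFAM, which packages mitochondrial DNA, and NRF1, which activates respiratory genes, were looked up after the values were seen. TFAM gave 3022 ± 250, 3013 ± 157 and 3001 ± 473 normalised read counts in shControl, shARNT and shBMAL1, and NRF1 gave 460 ± 15.8, 455 ± 10.9 and 447 ± 50.9. Neither passed in any comparison.

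**Figure D5:**
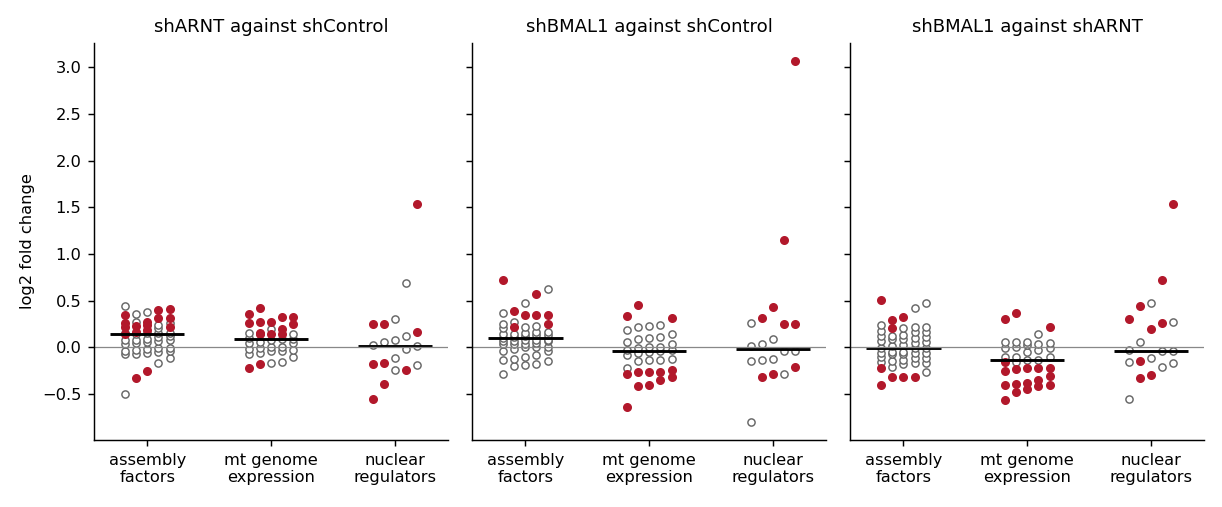
Log2 fold change of every gene tested in the lists of assembly factors, genes that maintain and express mitochondrial DNA, and nuclear regulators, by comparison. Filled red points passed DESeq2's test at an adjusted p under 0.1, open points did not, and the bar is the median. The highest point in every panel is PPARGC1A (1.54, 3.07 and 1.53), and in the direct comparison 16 of 37 genes of the middle list are lower in shBMAL1.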

How the data were processed

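RNA from 9 samples of 786-O cells was sequenced as stranded mRNA libraries, per the labels. The authors deposited estimated counts (linear total reads, 1 row a gene). The study's methods name GRCh37, SeqMan NGen and ArrayStar, whereas the submitters' processing notes name hg38, STAR and DESeq2, so the build behind the counts is uncertain. The annotation and the strand setting are not given in the sources used here. The deposited value of 0.009 was set to 0, and fractional counts (6.14% of the other values) were rounded. Of 38074 rows, 53 that shared a gene name were merged, which left 38021 genes. The members and gene lists were chosen with earlier results of these data known.

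Each comparison was fitted on its 6 libraries in DESeq2 version 1.42.0 (R 4.3.3) with median-of-ratios size factors and two-sided Wald p-values. The tool's own filter chose a cutoff on low means in each comparison, for an adjusted p of 0.1, so the number of genes tested differed. Adjustment was by Benjamini and Hochberg over all genes tested. A gene was called at an adjusted p under 0.1. Fold changes are log2 values ± SE, and normalised read counts are scaled by size factors. Named genes were the 13 mitochondrial genes, complex II, the isoforms of complex IV, and for each other complex and list the 2 most raised and 2 most lowered called genes whose mean reached 50 normalised read counts. Their calls in other comparisons are given for some of them. Levels per length used transcript lengths from GENCODE on GRCh37, which matched 104 of 105 members. Alternatives were edgeR version 4.0.16, TMM scaling, size factors without mitochondrial rows, a filter on low counts, 1 fit over 9 libraries, a GC correction, a replicate block, a stricter threshold, a minimum fold and leaving out each library. The script was tested on simulated data. Pairs of libraries of a group differed by more than sampling noise.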

Additional observations from a re-analysis of the deposited data

How the results depend on the processing

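Of 180 named log2 fold changes 141 passed the test, and 73 of these passed in every refit. The other 68 were lost in at least 1 refit, 64 of them when a single library was left out. No change that passed the test turned its direction in any refit. Counts are called members, mitochondrial then nuclear. Under shARNT they were 11 and 32. The mitochondrial count became 7 with TMM scaling, 6 with the GC correction and 4 at an adjusted p under 0.05, and with a minimum change of 1.5-fold the counts became 1 and 2. With 1 library left out they ranged from 3 to 13 and from 18 to 30. Under shBMAL1 they were 10 and 31, became 5 and 2 with the minimum fold, and ranged from 7 to 13 and from 20 to 31 with 1 library left out. In the direct comparison they were 4 and 29. The mitochondrial count became 1 with 1 fit over 9 libraries and 0 with the minimum fold (edgeR called 4 at an adjusted p under 0.1). The nuclear count became 19 at an adjusted p under 0.05 and 2 with the minimum fold. With 1 library left out the ranges were 4 to 7 and 16 to 32, the lowest nuclear count without replicate 2 or 3 of shARNT. The cause of these differences was not tested.

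Taken over genes together, the deviations of same-numbered libraries correlated weakly, with r from -0.154 to 0.105. This check gave no separate value for the 13 mitochondrial genes, so it cannot decide whether replicate number mattered for them. Their share of reads was highest in replicate 3 of shControl (6.54%), shARNT (8.13%) and shBMAL1 (8.60%). In shBMAL1 another library had the same rounded share. A replicate effect on these genes alone was not tested. With the replicate block the counts were 13 and 26 under shARNT, 11 and 26 under shBMAL1 and 5 and 24 in the direct comparison. With it 21 named calls were lost, and not all of these losses are listed with their genes above.

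With reads outside the mitochondrial genome as the denominator, the mitochondrial share was 6.06% in shControl, 8.10% in shARNT and 9.25% in shBMAL1. The nuclear share averaged 0.903% with the control hairpin, 0.998% with shARNT and 0.958% with shBMAL1, and its shControl libraries (0.898% to 0.908%) no longer overlapped with those of shBMAL1 (0.919% to 0.991%).

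Direction turned in some refit for 15 values that had not passed the test. With the GC correction ATP6 (-0.0015), COX4I1 (-0.021) and COX6A1 (-0.018) turned in the direct comparison, and COX6B1 turned under shARNT (0.048) and shBMAL1 (0.0077). COX4I1 turned under shARNT with TMM scaling (-0.0048), and COX6B1 turned in the direct comparison with the count filter (0.00090). With 1 library left out, the direct comparison gave -0.21 to 0.18 for ND1, -0.21 to 0.040 for ND2, -0.10 to 0.15 for ATP6, -0.032 to 0.056 for COX4I1, -0.014 to 0.056 for COX6A1, -0.10 to 0.076 for COX6B1 and -0.014 to 0.053 for COX8A. Under shARNT the ranges were -0.065 to 0.030 for SDHD, -0.039 to 0.064 for COX4I1, -0.12 to 0.065 for COX6B1, -0.063 to 0.11 for COX7A2 and -0.067 to 0.020 for COX7A2L. Under shBMAL1 they were -0.032 to 0.072 for COX4I1, -0.12 to 0.059 for COX6B1 and -0.029 to 0.20 for COX7B.

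NDUFA4L2, NDUFA6-AS1 and the isoforms at or near 0 stayed under 50 normalised read counts in every library, and their values are imprecise at this depth.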
